A study of Homo sapiens with 12 samples.

Results

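The STAT5B peaks of the HSB-2 cell line were described as 1 list, called in the STAT5B ChIP-Seq library of that line against its own input library. All rows of the list on chromosomes 1 to 22 were taken, which were 3034 of its 3052 rows. The 6 lists of the series held 23569 autosomal peaks and 24844 peaks in all. The series profiled STAT5B in 6 human T-cell acute lymphoblastic leukemia (T-ALL) cell lines, each with 1 STAT5B and 1 input library. STAT5 activation is labelled as high in HSB-2, DND-41, KOPT-K1, and SUP-T13 and as low in JURKAT and LOUCY. HSB-2 is labelled as a precursor T-cell line of wild-type genotype. Its chromatin was fixed with formaldehyde and precipitated with an antibody against STAT5B (R&D Systems AF1584), and its input was sequenced without antibody. With 1 library of each kind, no value has a replicate error. Read counts are not part of the list, and the sequencing depth under each peak is unknown. The other 5 lists were used as reference values only.

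STAT5B is a transcription factor that is phosphorylated on tyrosine by Janus kinases downstream of cytokine receptors such as the IL-7 receptor, which sustains early T cells. Phosphorylated STAT5 forms dimers that enter the nucleus and bind a palindrome known as GAS, after the interferon gamma activated sequence in which it was described. STAT5 often binds far from the genes it regulates, in introns and between genes, as well as at promoters.

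The palindrome TTCNNNGAA, which reads the same on both strands, was searched in the reference within 50 bp of each summit, the position of highest signal in a peak. It was present at 229 of 3033 summits (7.55%, exact 95% binomial interval 6.63 to 8.55), and 1 summit was left out because its window held unsequenced bases. In windows of the same 101 bases centred 1000 bp to either side of the summits it was present in 276 of 6065 (4.55%, 4.04 to 5.11). These and all later intervals cover counting error only. The sequences that follow are the reference within 30 bp of the summit for 13 peaks chosen among those that combine the palindrome with the highest −log10 q in their class, a measure of how far a peak stands above its input. All are from GRCh38, plus strand, and the capitals mark the palindrome.

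The 5 promoter summits lay within 2 kb of a start site of *MTHFD2*, *GAD1*, *WARS1*, *NFE2L2*, and *CRYBA2*, and each had the palindrome within 16 bp of the summit.
MTHFD2 (chr2:74206306-74206366): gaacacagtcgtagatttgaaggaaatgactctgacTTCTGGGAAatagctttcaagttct
GAD1 (chr2:170843866-170843926): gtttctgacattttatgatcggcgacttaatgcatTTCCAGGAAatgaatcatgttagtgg
WARS1 (chr14:100375453-100375513): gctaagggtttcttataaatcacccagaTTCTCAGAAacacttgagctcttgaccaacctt
NFE2L2 (chr2:177265958-177266018): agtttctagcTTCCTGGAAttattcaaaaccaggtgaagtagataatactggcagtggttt
CRYBA2 (chr2:218991924-218991984): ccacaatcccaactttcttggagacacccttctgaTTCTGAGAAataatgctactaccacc

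The 4 intron summits lay in *PTPN4*, *LRP1B*, *B3GALT1*, and *SLC4A10*, each with the palindrome within 12 bp of the summit.
PTPN4 (chr2:119929644-119929704): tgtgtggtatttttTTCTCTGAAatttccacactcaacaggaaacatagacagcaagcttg
LRP1B (chr2:141283918-141283978): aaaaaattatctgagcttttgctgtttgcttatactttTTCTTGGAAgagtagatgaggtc
B3GALT1 (chr2:167752647-167752707): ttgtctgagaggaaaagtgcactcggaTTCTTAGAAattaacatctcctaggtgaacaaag
SLC4A10 (chr2:161952881-161952941): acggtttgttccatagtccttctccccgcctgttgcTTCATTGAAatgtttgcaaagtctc

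The 4 distal summits are named after the gene with the nearest start site. At the summit near *MZT2A* the palindrome was centred 35 bp away, outside the printed window, so no capitals are shown.
ZFP36L2 (chr2:43047117-43047177): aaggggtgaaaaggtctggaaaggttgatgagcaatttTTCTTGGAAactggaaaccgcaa
MZT2A (chr2:131504449-131504509): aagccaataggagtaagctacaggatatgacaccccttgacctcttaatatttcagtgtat
MRPS5 (chr2:95074650-95074710): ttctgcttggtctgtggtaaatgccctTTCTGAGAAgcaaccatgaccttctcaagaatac
PPP1R15A (chr19:48878535-48878595): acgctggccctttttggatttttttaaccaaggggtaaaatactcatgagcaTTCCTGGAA

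Some printed copies have the same form when both strands are read. *GAD1* had TTCCAGGAA, and *NFE2L2* and the site near *PPP1R15A* had its other strand, TTCCTGGAA. *CRYBA2* and the site near *MRPS5* had TTCTGAGAA, and *WARS1* had its other strand, TTCTCAGAA. *LRP1B* and the site near *ZFP36L2* had TTCTTGGAA.

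The peaks lay almost entirely on chromosomes 1 and 2. Chromosome 1 held 2556 summits (84.2%), chromosome 2 held 435 (14.3%), and the other 20 autosomes together held 43. No summit lay on chromosomes 6 to 9, 11, 13, 15, 17, 18, or 20 to 22. The share on chromosomes 1 and 2 was 98.6%, and of the other lists it was 36.5% in KOPT-K1, 81.9% in JURKAT, and 98.7%, 99.2%, and 99.3% in DND-41, SUP-T13, and LOUCY. Why the peaks were placed in this way was not tested, so the lack of a peak elsewhere cannot be read as a lack of STAT5B binding, and counts and shares of genes hold for this list only. On chromosome 1 all intervals lay between positions 63640806 and 178862457, a stretch of 115.2 Mb in a chromosome of 249.0 Mb. Within that stretch the summits were dense, at 2.22 per 100 kb, with a median gap of 6404 bp between intervals and a largest gap of 1.51 Mb. No interval lay on the rest of chromosome 1. The intervals covered 62.2 Mb, or 54.0% of the stretch. Of this, 17.99 Mb was 1 interval with 1 summit, which also lowers the density of summits over the stretch. In DND-41, JURKAT, SUP-T13, and LOUCY, the chromosome 1 summits began at 8.70, 27.6, 33.4, and 33.2 Mb and ended at 221.8, 228.6, 228.6, and 204.7 Mb. KOPT-K1 had 29 summits on chromosome 1, from 2.65 to 186.8 Mb.

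Chromosome 2 had fewer intervals, of which 29 were longer than 1 Mb, against 1 on chromosome 1. The median width was 8013 bp on chromosome 2 and 7840.5 bp on chromosome 1. The intervals of chromosome 2 ran from 27793424 to 229750973 and covered 96.3% of that stretch, or 80.3% of the chromosome. Their largest gap was 0.653 Mb. The share of chromosome 2 covered in the other lists was lowest in KOPT-K1 (60.3%) and highest in SUP-T13 (82.2%), with DND-41 at 76.4%, JURKAT at 80.3%, and LOUCY at 81.3%. Divided by position, at borders chosen after the values were seen, 84 summits lay before 33 Mb and 25 between 33 and 190 Mb. A further 91 lay between 190 and 220 Mb, and 235 lay after 220 Mb. The 25 summits of the long middle stretch had a median interval of 4941699 bp and carried the palindrome in 21 cases (84.0%). After 220 Mb the median interval was 5602 bp, and 12 of 235 summits (5.11%) carried it.

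Interval width spanned 4 orders of magnitude. The narrowest interval was 2652 bp, the median 7756 bp, and the upper quartile 18022 bp. There were 979 intervals of at most 5 kb and 31 of more than 1 Mb, and the longest measured 30.9 Mb. The 31 longest intervals, of which 29 lay on chromosome 2, made up 204.7 of the 269.1 Mb covered by the whole list (76.0%). They contained the 5′ ends of 754 protein-coding genes, but each has 1 summit, so that most of these genes were not assigned a peak. Their summits carried the palindrome in 20 of 31 cases (64.5%, 45.4 to 80.8), where the 31 include the 1 summit that could not be searched. That summit lay in an interval of 17.99 Mb on chromosome 1, from 125188740 to 143180077. The interval held no protein-coding gene and had a fold enrichment of 1.77.

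Fold enrichment over input, the ratio computed by the peak caller, had a median of 1.88, with quartiles at 1.82 and 2.00 and a maximum of 5.998. The −log10 q had a median of 2.63 and ranged from 1.30 to 158.0. It was at least 5 in 214 peaks and at least 10 in 84. In the other 5 lists the median fold enrichment was between 1.72 in LOUCY and 2.27 in DND-41. Peaks with −log10 q 5 or more numbered 111 in KOPT-K1, 117 in JURKAT, 128 in LOUCY, 210 in SUP-T13, and 701 in DND-41.

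Most of the strongest peaks had very long intervals. Among the 84 peaks with −log10 q 10 or more, 48 had intervals of more than 100 kb (57.1%, against 3.92% of the whole list) and 19 had intervals of at most 5 kb (22.6%, against 32.3%). The palindrome was present at 10 of the 19 short ones (52.6%, 28.9 to 75.6) and at 28 of the 48 long ones (58.3%, 43.2 to 72.4). In the flanks of these peaks it was present in 6 of 37 windows (16.2%) and 6 of 96 windows (6.25%). The widths between them had fewer of these peaks, 8 from 5 to 20 kb and 9 from 20 to 100 kb, with the palindrome at 2 and 4 summits. With −log10 q 5 or more the middle widths were not sparse, with 41, 37, 57, and 79 peaks in order of width.

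Most summits lay outside protein-coding genes. By summit, 240 peaks were at promoters (7.91%, 6.97 to 8.93), defined as within 2 kb of any annotated start site of a protein-coding gene. A further 57 were in exons of the canonical transcript (1.88%, 1.43 to 2.43), 982 in introns (32.4%, 30.7 to 34.1), and 1755 at distal sites (57.8%, 56.1 to 59.6). Points moved 10 kb to either side of each summit gave a background measured in the same way. Of these 6068 points, 7.73% were at promoters, 1.83% in exons, 32.9% in introns, and 57.5% at distal sites, so the interval of each class at the summits held the value of the moved points. The share at promoters in the other lists was 4.49% in KOPT-K1, 8.60% in JURKAT, 9.08% in DND-41, 11.2% in LOUCY, and 13.2% in SUP-T13.

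The promoter share was higher among the stronger peaks. It was 8.01% of the 549 summits with a −log10 q under 2, 5.38% of 1412 from 2 to 3, 8.96% of 859 from 3 to 5, 22.3% of 130 from 5 to 10 (15.5 to 30.4), and 16.7% of 84 at 10 or more (9.42 to 26.4). Summits also came close to start sites more often than the moved points did. Within 200 bp of a start site lay 72 summits (2.37%, 1.86 to 2.98), against 72 of 6068 moved points (1.19%, 0.930 to 1.49). Among the 43 promoter summits with −log10 q 5 or more, 27 were within 200 bp. The 72 close summits had a GC content of 59.5% in 101 bp and a median of 6 CpG dinucleotides, and the palindrome was present at 6 of them. The 168 other promoter summits had 45.0% GC, a median of 1 CpG, and the palindrome at 8.

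The promoter summits were assigned to 237 genes, 1.24% of the 19103 autosomal protein-coding gene symbols, of which 177 were on chromosome 1, 58 on chromosome 2, and 2 elsewhere. Among the 3308 genes of chromosomes 1 and 2 the share was 7.10%. With only the 5′ end of each gene as its start site, the count fell to 124 genes, so that 113 genes were reached through the start of a shorter or alternative transcript. For 23 summits more than 1 gene had a start site in the window. A promoter or gene body summit was found for 530 genes, 2.77% of all and 15.9% of those on chromosomes 1 and 2.

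The palindrome was present at 14 promoter summits, which were assigned to 17 genes (0.0890% of all autosomal genes). The strongest was at *MTHFD2*, a mitochondrial enzyme of folate metabolism, with its summit at position 74206336 of chromosome 2. It lay in intron 2 of the canonical transcript, 48 bp upstream of the start of another transcript. Its fold enrichment was 4.20 and its −log10 q 93.6, and the interval measured 15.6 Mb. *GAD1*, which makes the neurotransmitter GABA from glutamate, had its summit in intron 6 of the canonical transcript, 94 bp downstream of an alternative start, with a fold enrichment of 3.88. In both genes the 5′ end of the gene itself lay farther than 2 kb from the summit.

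*WARS1*, the cytoplasmic tryptophanyl-tRNA synthetase, gave the sharpest promoter peak with the palindrome. It was 1 of the 2 genes off chromosomes 1 and 2 with a promoter summit, the other being its neighbour *WDR25*, whose start was 935 bp away from the same summit. The interval ran from 100375359 to 100378058 on chromosome 14, a width of 2700 bp, and its summit at 100375483 was 8 bp upstream of a *WARS1* start site. Fold enrichment was 2.20 and −log10 q 21.2, and the palindrome TTCTCAGAA was centred 2 bp from the summit. The RefSeq promoter of this gene, from 250 bases before to 50 bases after a start on the minus strand (GRCh38), held the same site in the other orientation, in capitals in the next line.
WARS1 promoter (chr14:100375298-100375597): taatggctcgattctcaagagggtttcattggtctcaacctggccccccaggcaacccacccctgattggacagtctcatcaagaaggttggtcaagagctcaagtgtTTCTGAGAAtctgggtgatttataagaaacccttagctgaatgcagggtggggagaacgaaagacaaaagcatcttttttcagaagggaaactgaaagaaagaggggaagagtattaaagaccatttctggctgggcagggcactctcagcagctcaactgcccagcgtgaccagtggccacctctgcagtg
Of 20583 RefSeq promoters of this length on autosomes, 1421 (6.90%, 6.56 to 7.26) held the palindrome. A RefSeq promoter was found for 197 of the 237 genes, and 19 of their 308 promoters held it (6.17%, 3.75 to 9.47).

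The other promoter summits with the palindrome had a lower −log10 q. *NFE2L2* encodes NRF2, the transcription factor of the oxidative stress response, and had a summit 1201 bp upstream of a start site at 2.01-fold enrichment (−log10 q 10.7). *CRYBA2*, a lens crystallin gene, had a summit in intron 2, 458 bp upstream of an alternative start, with a fold enrichment of 3.00. *DNAH7*, an axonemal dynein gene, had a summit 5 bp upstream of a start with a −log10 q of 9.61, and the palindrome 43 bp away. *MUC1*, a membrane mucin gene, had a fold enrichment of 2.30 and shared its summit with the gene ENSG00000273088. A further 6 summits had a −log10 q between 2.06 and 3.36 and were at *COL11A1*, *SORT1*, *SPATA46* with *C1orf226*, *OR6K6*, *AMY2A*, and *SCYGR10*. They included genes of cartilage collagen, odorant reception, and pancreatic amylase, and their fold enrichments were between 1.82 and 2.06.

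The strongest promoter summits without the palindrome were close to start sites. *MAIP1* and *TYW5*, a mitochondrial protease partner and a tRNA-modifying enzyme with neighbouring 5′ ends, shared a summit at 199955628 on chromosome 2, 46 and 108 bp downstream of their starts. It had 3.14-fold enrichment (−log10 q 23.6), and DND-41, SUP-T13, and LOUCY had a summit within 500 bp of it. *NOTCH2*, a receptor of the family whose member *NOTCH1* is frequently mutated in T-ALL, had a summit 17 bp downstream of its start in exon 1, at 3.25-fold enrichment (−log10 q 13.1). LOUCY and JURKAT had a summit within 500 bp of it. *NHEJ1*, a DNA repair gene, and *CCDC150* had summits 88 bp downstream and 40 bp upstream of a start, with fold enrichments of 2.83 and 2.74.

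Several promoter summits fell in gene copies of chromosome 1 that are nearly identical in sequence. *NOTCH2NLA* with *NBPF10* had a fold enrichment of 3.18, and *NOTCH2NLC* with ENSG00000286185 had 2.96, and both summits were within 500 bp of summits in SUP-T13, LOUCY, and JURKAT. Reads can be assigned to more than 1 of such copies, and which copy a peak belongs to is uncertain. Whether reads at *NOTCH2* can be told apart from those at the *NOTCH2NL* genes was not assessed. The genes named *NBPF*, *NOTCH2NL*, *SRGAP2*, or *FAM72* with a promoter summit numbered 14 of 237.

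Genes of immune signaling, cell growth, and related functions were counted in 13 lists. Of their 279 autosomal genes, 10 had a promoter summit (3.58%, against 1.24% of all autosomal genes), and 33 a promoter or gene body summit. On chromosomes 1 and 2 lay 153 of these genes. Of those, 6.54% had a promoter summit, against 7.10% of all genes there, and 21.6% a promoter or gene body summit, against 15.9%. In this and all later shares that count gene body summits, gene length was not matched. The share with either summit was 54.5% of 11 genes there in the JAK-STAT list and 16.7% of 6 in the list of STAT5 targets and feedback genes. In the list of 31 JAK-STAT pathway genes, *STAT4* on chromosome 2 had a summit at 191029734 in exon 24, at 2.59-fold enrichment, −log10 q 16.5, and the palindrome TTCCTAGAA centred 4 bp away. The receptor genes *IL6R*, *IL12RB2*, *IL23R*, and *LEPR* had summits in the gene body, without the palindrome, with fold enrichments between 1.72 and 2.12. In the list of 25 STAT5 targets and feedback genes, *PIAS3*, an inhibitor of STAT signaling, had a promoter summit near the limit of the list, at 1.55-fold enrichment (−log10 q 1.41). The list had 6 genes on chromosomes 1 and 2, and the other 5 had no summit.

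Other lists had only part of their genes on chromosomes 1 and 2, where nearly all peaks lay. These were 13 for T-cell receptor signaling, 14 for costimulation, 17 for T lineage transcription factors, 10 for apoptosis, and 20 for cell cycle and growth. Of them 23.1%, 7.14%, 29.4%, 30%, and 10% had a promoter or gene body summit, against 15.9% of all genes there. Of the 48 T-cell receptor signaling genes on all autosomes, none had a promoter summit and 3 had summits in the body, *VAV3*, *BCL10*, and *PTPN22*. *VAV3* had 5 of them, with fold enrichments between 1.62 and 1.94. The 5′ ends of 5 of the 48 T-cell receptor signaling genes lay inside 2 intervals, without a summit within 2 kb of a start. The costimulation list of 21 genes had 1 body summit, in *CD58*. Of 40 T lineage transcription factors, *NOTCH2* and *MEF2D* had promoter summits, and *LMO4* and *IKZF2* had body summits. *IKZF2*, which encodes Helios, had 6 summits along its introns, with −log10 q values between 1.34 and 2.90. Of 26 apoptosis genes, the neighbours *CFLAR*, *CASP10*, and *CASP8* on chromosome 2 had body summits, and at a *CASP8* summit 2522 bp from a start the palindrome was 25 bp away. Of 32 cell cycle and growth genes, *CDC7* and *NUF2* had body summits, and *NUF2*, a kinetochore gene, had the palindrome 45 bp from the summit in intron 9.

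The SLAM and CD1 families and 16 of 19 Fc receptor genes lay inside the dense stretch of chromosome 1. A promoter or gene body summit was found for 4 of 9 SLAM family genes (44.4%), 6 of 19 Fc receptor genes (31.6%), 1 of 5 CD1 genes (20%), and 1 of 11 histone genes on this chromosome (9.09%), against 15.9% of all genes on chromosomes 1 and 2. A promoter summit was found for 2, 3, 1, and 0 of them, against 7.10% of all genes there. The genes of chromosomes 1 and 2 include those on the rest of chromosome 1, where the list has no interval. They also include those of chromosome 2, where the stretch with intervals had 0.215 summits per 100 kb, against 2.22 in the dense stretch. These shares are therefore no matched background for families inside the dense stretch. In the SLAM family, *SLAMF8* and *SLAMF9* had promoter summits, with fold enrichments between 1.70 and 1.91, and *SLAMF7* and *LY9* had body summits. The *SLAMF7* summit, at 160744325 in intron 1, had the palindrome TTCCGAGAA 35 bp away and a fold enrichment of 1.77. Of the Fc receptor genes, *FCGR2A*, *FCGR2C*, and *FCER1A* had promoter summits and *FCRL1*, *FCRL2*, and *FCRL5* body summits. *FCGR2A* and *FCGR2C* share long stretches of similar sequence, so their assignment is uncertain. Of the 5 CD1 genes, *CD1A*, a marker of cortical thymocytes, had a promoter summit 473 bp upstream of its start, at 1.69-fold enrichment (−log10 q 1.98). No summit was assigned to the 15 listed genes of the IL-1 and IL-18 receptor cluster, whose 5′ ends all lay in 1 long interval of chromosome 2 with its summit elsewhere. The 5 genes listed with the IL-10 family lay on chromosome 1 beyond the end of the dense stretch, where the list has no interval. Of 12 listed histone genes, 11 were on chromosome 1, and *H2BC18* had a summit in the gene body.

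Cell type markers on chromosomes 1 and 2 had a promoter or gene body summit in 2 of 15 cases (13.3%, against 15.9% of all genes there), and a peak list measures no expression. Of 19 T lineage markers, 11 were on chromosomes 1 and 2 and 1, *CD1A*, had a summit. Of 6 B lineage markers, *FCRL1* was the only one on these chromosomes, and it had a body summit in intron 1. Of 6 myeloid markers, 3 were on these chromosomes and none had a summit.

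Intron summits were spread over 328 genes. A single summit was found in 172 of them, and 52 genes with at least 5 summits held 539 of the 982 (54.9%). The median host gene was 192.1 kb long, and the median distance to the nearest start site was 19.4 kb. Of 848 summits inside an intron of the canonical transcript, 174 (20.5%) were in intron 1. The genes with the most summits in their body were mainly long genes of chromosome 1, led by the neural adhesion gene *NEGR1* with 28 in 886.6 kb. *ADGRL2*, an adhesion receptor, had 25, and *COL24A1*, a collagen gene, and *ST6GALNAC3*, a sialyltransferase gene, had 23 each. *NOS1AP*, an adaptor of nitric oxide synthase, and *NYAP2*, on chromosome 2, had 22 each. Per 100 kb, this was 3.16 summits in *NEGR1*, 3.63 in *ADGRL2*, 5.38 in *COL24A1*, and 7.31 in *NOS1AP*, against 2.22 over the whole stretch of chromosome 1. That stretch includes the interval of 17.99 Mb with 1 summit. The summits of *NEGR1* had fold enrichments from 1.64 to 2.12, and 3 of 28 carried the palindrome. In *COL24A1* and *NYAP2* no summit carried it. *NOS1AP* also had a stronger summit, at 3.66-fold enrichment (−log10 q 18.3).

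The 10 strongest intron summits were all on chromosome 2, and some of them are described here. In *PTPN4*, a tyrosine phosphatase gene expressed in T cells, the summit was in intron 13, at 5.14-fold enrichment (−log10 q 116.6), and KOPT-K1 and SUP-T13 had a summit within 500 bp. *LRP1B*, a lipoprotein receptor gene, had a summit in intron 3 with a fold enrichment of 3.89, and *B3GALT1*, a galactosyltransferase gene, had 1 in intron 3 with 3.52 and the palindrome 1 bp from the summit. *MTX2*, which acts in mitochondrial import, and *BARD1*, the partner of BRCA1, had the palindrome 2 and 3 bp from summits in introns 1 and 9, with fold enrichments of 3.15 and 3.28. *SLC4A10*, a bicarbonate transporter gene, had a fold enrichment of 2.72 in intron 19. Of the 10 strongest, 3 had no palindrome, in *RBMS1*, *PDE11A*, and *PLEKHM3*, with fold enrichments of 3.10, 3.82, and 3.20.

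Distal summits were often remote from any protein-coding start site. The median distance to the nearest protein-coding start site was 110.4 kb, with quartiles at 34.4 and 358.5 kb. Of 1755 distal summits, 921 (52.5%) were more than 100 kb away, 321 more than 500 kb, and 141 within 10 kb. A lncRNA gene body held 479 of them (27.3%), and 61 lay within 2 kb of a lncRNA start. Counted with lncRNA genes, 41.6% of all summits were distal and 45.6% intronic.

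Of the 10 strongest distal summits, 9 had the palindrome. The summit nearest to *ZFP36L2*, which encodes an mRNA decay factor, was at 43047147, 179.5 kb from its start, in the longest interval of the list, from 32916260 to 63857008 on chromosome 2. It had 5.44-fold enrichment (−log10 q 155.5), and KOPT-K1 had a summit within 500 bp. The summit 11.7 kb upstream of *MZT2A*, a gene of the mitotic spindle, had a fold enrichment of 5.78. A summit 59.7 kb from a start of *CXCR4*, the chemokine receptor that guides T-ALL cells to bone marrow, had 3.76-fold enrichment (−log10 q 60.5), with the palindrome TTCTAAGAA centred 18 bp away. Summits near *PCBP1*, an RNA-binding protein gene, *TSN*, the translin gene, and *GALNT13*, a glycosyltransferase gene, were 43.8 kb, 981.7 kb, and 153.9 kb from the nearest start. Their fold enrichments were 5.17, 5.28, and 4.60, and the palindrome was within 17 bp of each. The summit near *MRPS5*, a mitochondrial ribosome gene, had the palindrome 1 bp away and a fold enrichment of 4.17. The exception was the peak of highest −log10 q in the whole list, 158.0, at 36056663 on chromosome 16. Its interval of 11.8 Mb, from 34599541 to 46381811, held no protein-coding gene. The nearest start site, of ENSG00000284209, was 1.68 Mb away. Repeated sequence was not assessed, so how reads were placed in this interval is unknown.

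The site near *PPP1R15A* stood alone on chromosome 19. *PPP1R15A* encodes a phosphatase subunit of the integrated stress response. Its interval of 3054 bp, from 48875706 to 48878759, had its summit 5498 bp downstream of the start, at 3.26-fold enrichment, −log10 q 89.2, and TTCCTGGAA 26 bp away. No other list had a summit within 500 bp. With the peak at *WARS1* and peaks in introns of *KCNH8* and *COPZ1* and near *TBL1XR1* and *CDH12*, chosen for naming after their values were seen, it belonged to 6 isolated peaks outside chromosomes 1 and 2. Their widths were between 2681 and 3054 bp, none was within 500 bp of a summit of another list, and 4 of 6 carried the palindrome. The other 37 peaks outside chromosomes 1 and 2 lay in runs on chromosomes 3, 4, 5, 10, and 16 with few genes nearby. Their median fold enrichment was 2.47, and 10 of 37 carried the palindrome. In the flanks of all peaks outside chromosomes 1 and 2 it was present in 17 of 85 windows (20%, 12.1 to 30.1), against 4.55% over the whole list.

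The frequency of the palindrome rose steeply with peak strength. It was present at 4.01% of 548 summits with a −log10 q under 2 (2.53 to 6.02), 5.67% of 1412 from 2 to 3 (4.52 to 7.002), and 6.98% of 859 from 3 to 5 (5.37 to 8.90). From 5 to 10 it was present at 23 of 130 (17.7%, 11.6 to 25.4), and at 10 or more at 44 of 84 (52.4%, 41.2 to 63.4). In the flanks the share was 4.11%, 4.60%, 4.19%, 6.54%, and 7.19% in the same order. Below 3, the intervals of summits and flanks overlapped, and these 1961 peaks made up most of the list.

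The rise was seen on both main chromosomes. At −log10 q 10 or more, the palindrome was present at 8 of 19 summits on chromosome 1 (42.1%, 20.3 to 66.5) and 29 of 48 on chromosome 2 (60.4%, 45.3 to 74.2). Over all strengths it was present at 6.38% of summits on chromosome 1 (5.46 to 7.40) and 11.95% on chromosome 2 (9.06 to 15.4), with 4.52% and 3.22% in the flanks. By class and over all strengths, the share was 5.83% at promoters (3.23 to 9.59), 8.77% in exons (2.91 to 19.3), 7.23% in introns (5.69 to 9.03), and 7.92% at distal sites (6.70 to 9.29). The flanks of the same classes had 2.92%, 4.39%, 4.02%, and 5.08%. Among peaks with −log10 q 10 or more, it was 5 of 14 at promoters, 9 of 22 in introns, and 29 of 47 at distal sites (61.7%, 46.4 to 75.5).

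The palindromes clustered at the summit. Per 40 bp and 100 summits, 3.33 were centred in the 40 bp before the summit and 3.43 in the 40 bp from it on, against a mean of 1.91 beyond 200 bp, where single bins ranged from 1.32 to 2.44. For the 214 peaks with −log10 q 5 or more these values were 11.7 and 17.8, against 3.14. At the 44 strongest summits with the palindrome, its centre was a median of 12 bp from the summit.

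The forms of the palindrome differed in how much more often they occurred at summits than in flanks. Read on either strand, 24 forms occurred among 238 sites at summits. The commonest, TTCTCAGAA, occurred 54 times at summits (17.8 per 1000) and 48 times in the larger set of flanks (7.91 per 1000). TTCCTAGAA occurred 27 times against 13 (8.90 and 2.14 per 1000), TTCCAAGAA 21 against 7 (6.92 and 1.15 per 1000), and TTCCAGGAA 18 against 13 (5.93 and 2.14 per 1000). TTCCCGGAA occurred 6 times at summits and 0 times in flanks. By contrast, TTCAAAGAA was no more frequent at summits, with 4.62 per 1000 against 5.44, and it was absent from the 214 stronger peaks. The stricter palindrome TTCCNGGAA was present at 23 summits (0.758%, 0.481 to 1.14) and in 13 flank windows (0.214%, 0.114 to 0.366). Among the stronger peaks it was present at 11 of 214 (5.14%, 2.59 to 9.01) and in 1 of 427 flank windows (0.234%).

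Rearrangements of the palindrome did not follow it. With a spacer of 2 bases the share was 3.07% at summits and 3.12% in flanks, and with a spacer of 4 bases it was 3.66% and 3.48%. The inverted GAANNNTTC gave 3.79% and 3.87%, AAGNNNCTT 3.07% and 3.35%, and CTTNNNAAG 3.03% and 3.08%. Motifs of other factors, searched on both strands, differed less than the palindrome in most cases. TGTGGT, which RUNX factors bind, was present at 8.37% of summits (7.41 to 9.42) and 6.31% of flanks (5.72 to 6.96). At the 214 stronger peaks it was present at 14.5% (10.1 to 19.9) and 7.73% of flanks (5.38 to 10.7). It occurred in 10 of 67 stronger peaks with the STAT5 palindrome and 21 of 147 without. The ETS motif CCGGAAG was rare, at 8 summits and in 5 flank windows. GGGCGG, bound by SP factors, was present at 2.01% and 1.43%, and in the stronger peaks at 10.3% (6.56 to 15.2) and 3.98% (2.34 to 6.30). CCAAT, bound by NF-Y, was present at 14.8% of summits (13.6 to 16.2) and 16.4% of flanks (15.4 to 17.3), with intervals that overlap. The AP-1 motif TGANTCA was present at 3.36% of summits and 3.13% of flanks, and the E-box CAGCTG at 3.00% and 2.70%. AGATAA, which factors such as GATA3 bind, was present at 8.64% and 8.38%, and TGGGAA, the motif of the NOTCH partner RBPJ, at 7.98% and 7.96%. GC content was 39.8% at summits and 39.7% in flanks, and 45.8% and 42.3% at the stronger peaks.

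HSB-2 summits were rarely at the same place as summits of the other lines. No summit of another list lay within 500 bp of 2592 HSB-2 summits (85.4%), 384 were near a summit of 1 other list, 47 of 2, and 11 of 3. DND-41 came first, with 205 HSB-2 summits (6.76%, 5.89 to 7.71; 3.44% of the DND-41 list), followed by JURKAT with 156 (5.14%; 2.64%), LOUCY with 72 (2.37%; 3.77%), SUP-T13 with 66 (2.18%; 1.51%), and KOPT-K1 with 12 (0.396%; 0.499%). Points moved 10 kb gave 3.31% for DND-41, 3.25% for JURKAT, 0.527% for LOUCY, 1.29% for SUP-T13, and 0.0824% for KOPT-K1. Of the 84 summits with −log10 q 10 or more, 16 were near a DND-41 summit (19.05%, 11.3 to 29.1), 12 near LOUCY, 10 near KOPT-K1, and 7 near SUP-T13, with intervals above the share of the whole list. Near JURKAT summits there were 7 (8.33%, 3.42 to 16.4), with an interval that held that share. The 12 summits near KOPT-K1 summits thus came mainly from the strongest peaks, such as those at *GAD1*, *PTPN4*, *RBMS1*, and *SLC4A10* and near *ZFP36L2* and *GALNT13*.

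The palindrome was unevenly spread over these pairs. Of the 229 HSB-2 summits with it, 27 were near a DND-41 summit (11.8%, 7.92 to 16.7), against 178 of the 2805 others (6.35%, 5.47 to 7.31). For KOPT-K1 it was 6 of 229 (2.62%) and 6 of 2805 (0.214%). For LOUCY it was 2 of 229 (0.873%, 0.106 to 3.12) and 70 of 2805 (2.496%, 1.95 to 3.14), and for JURKAT 5.24% and 5.13%. For SUP-T13 it was 7 of 229 (3.06%) and 59 of 2805 (2.103%). At promoters, 22 of 240 summits were near a DND-41 summit, 25 near a JURKAT summit, 19 each near a SUP-T13 and a LOUCY summit, and 2 near a KOPT-K1 summit. None of the 11 summits near summits of 3 other lists had the palindrome, and 4 of them were at promoters. The lists differ in their number of peaks, and why single lists share more summits was not tested.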

How the data were processed

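STAT5B ChIP-Seq libraries and inputs of 6 cell lines were compared by the authors, who aligned filtered reads to GRCh38 with BWA 0.7.15-r1140 and SAMtools 1.4, as named in their processing notes, and called peaks per line with MACS2 against input, with options not given in the sources used here. The deposited lists give a fold enrichment (a linear ratio) and −log10 p and q values, which depend on the depth of both libraries. The input libraries have no list of their own.

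Coordinates were counted from 1, and 0 intervals ended outside their chromosome in the GRCh38 reference. Summits were assigned to GENCODE version 44 protein-coding genes (promoter within 2 kb of any start site, then exon, intron, distal). Motif windows held 50 bp to either side, with flanks at 1000 bp. Shared summits lay within 500 bp, with points moved 10 kb as background. Shares have exact (Clopper-Pearson) 95% binomial intervals, and no test was run, as each line has 1 library. RefSeq promoters (GRCh38.p14) were matched by symbol.

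Genes were named by rule: the genes of the 10 promoter summits of highest −log10 q, of promoter summits with the palindrome (at most 20), of the 10 strongest intron and 10 strongest distal summits (nearest start), the 5 genes with most summits, and genes of the 13 lists with a promoter summit or a palindrome summit in the body. Other names were added to complete small counts. Some results chosen by these rules are not reported here. The members and lists were chosen with earlier results of these data known. Alternatives covered thresholds, windows, start sites, motif, and interval length. Python 3.11.15, NumPy 2.4.6, SciPy 1.17.1, pysam 0.24.0, samtools 1.23.1, and matplotlib 3.10.9 were used, and the functions were tested on simulated data.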

Additional observations from a re-analysis of the deposited data

Results flagged for a closer look

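The HSB-2 list also held 18 rows outside the autosomes, which the report does not use: 17 on chromosome Y and 1 on an unplaced contig. They were noted because peaks in data that no comparison used exceeded the limit that a count of 0 allows. Their fold enrichment had a median of 3.14 and ranged from 1.24 to 7.42, against a median of 1.88 on the autosomes, and their −log10 q reached 79.0. Why they were enriched was not tested.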

How the results depend on the processing

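Of 49 alternative values, 11 were within 1.5 times the main count or within the interval of the main share, and no cause of the others was tested beyond the construction of each alternative. The 3034 peaks became 214 at −log10 q 5 or more, 84 at 10 or more, 55 at a fold enrichment of at least 3, and 979 with intervals of at most 5 kb. The 237 promoter genes became 367 with a 5 kb window, 124 with the 5′ end only, 1388 with any base of the interval in the window, 57 at −log10 q 5 or more, and 60 with intervals of at most 5 kb. They were 223 without the *NBPF*, *NOTCH2NL*, *SRGAP2*, and *FAM72* genes, an alternative chosen after seeing the data. The promoter, intron, and distal shares were 20.1%, 22.9%, and 55.1% at −log10 q 5 or more, 5.82%, 35.9%, and 55.8% with intervals of at most 5 kb, and 10.7%, 45.6%, and 41.6% with lncRNA genes. Promoter and intron shares were 5.54% and 34.2% with a 1 kb window, 14.04% and 27.9% with a 5 kb window, and 3.46% and 36.2% with the 5′ end only. The palindrome was at 4.06% of summits and 1.91% of flanks within 25 bp, 12.2% and 8.84% within 100 bp, 0.758% and 0.214% as TTCCNGGAA, and 31.3% and 6.79% at −log10 q 5 or more. Flanks gave 5.16% with intervals of at most 5 kb. Among alternatives chosen after seeing the data, the summit share was 9.65% without the 12 commonest pairs of fold and −log10 q, and 6.96% without intervals over 1 Mb. In every one of these alternatives that gave both, the summit share was above the flank share. The share near a DND-41 summit was 3.43% within 200 bp, 11.1% within 1000 bp, 14.5% at −log10 q 5 or more in both lists, and 11.8% by an overlap of 50% of both intervals. No paired analysis was possible because each line has 1 STAT5B library and no result came from a test. As the lists hold no read counts, what depth limits is unknown.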

Other observations

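Fold enrichment and −log10 q took repeated values in the HSB-2 list. The 3034 peaks had 843 distinct pairs of the values, and the 12 commonest pairs were shared by 1531 peaks (50.5%). The commonest pair, a fold enrichment of 1.88 with a −log10 q of 2.36, occurred in 271 peaks, and the next, 1.82 with 2.06, in 259. The 12 fold enrichments were evenly spaced, with steps of 0.0588 to 0.0589. Of the peaks with these values, 1295 lay on chromosome 1 and 228 on chromosome 2, and 84 (5.49%) carried the palindrome.

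Summits often lay close to an end of their interval. In 824 peaks (27.2%) the summit was within 200 bp of an end, whereas evenly placed summits would give 6.07% for these widths. The palindrome was present at 7.89% of these summits (6.14 to 9.94) and at 7.42% of the others (6.37 to 8.60).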
